A study of Mus musculus with 6 samples.

Results

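The genes described here are the mouse MHC class II genes and their shared regulator, measured in sorted regulatory T cells (Tregs). They were chosen by symbol: the chain genes H2-Aa, H2-Ab1 and H2-Eb1, the invariant chain gene Cd74, the H2-DM genes H2-DMa, H2-DMb1 and H2-DMb2, the H2-O genes H2-Oa and H2-Ob, and the transactivator gene Ciita. All 10 were found among the 32285 rows of the count table, and all 10 passed the filter on low counts that left 17307 genes for testing. RNA was sequenced from CD4+CD25+ Tregs of C57BL/6 spleen in 3 WT and 3 Zfp335-deficient (KO) libraries. Per the methods, WT mice were ERCre and KO mice ERCre Zfp335fl/fl, both carried the Cre fusion, and both received tamoxifen in 3 injections at 6 weeks of age and were killed on day 7. The labels call the controls WT littermates and do not name the Cre or tamoxifen. No cell type restriction of the ERCre was given, so the deletion cannot be assumed to be limited to Tregs, and pooling of animals and sex were not given. Nothing in the labels says that the libraries of a group came from separate animals, so p-values measure the spread between these libraries. The comparison addresses how much class II RNA was present in these sorts and whether it differed between genotypes. Which cells carried this RNA was not tested.

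MHC class II molecules present peptides from ingested proteins to CD4+ T cells. The α and β chains (H2-Aa with H2-Ab1; H2-Eb1 with an α chain that C57BL/6 mice lack) assemble on the invariant chain CD74, which blocks the groove and guides them to endosomes, where H2-DM exchanges the last invariant chain peptide for antigen and H2-O restrains H2-DM. CIITA binds no DNA itself and acts on RFX, CREB and NF-Y proteins at conserved X and Y boxes in front of these genes. B cells, dendritic cells and macrophages express them constitutively or on stimulation, and mouse T cells are known for little of their own.

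Letters of the boxes can be looked for in the genes' own promoters. The RefSeq promoter table (GRCm38.p6) covers 250 bases before to 50 bases after each start and held 7 of the 10 members in 8 entries, H2-DMa having 2 starts. At 1 of the H2-DMa starts, ATTGG lies farther off, at -198 bases from the start, and that stretch is not shown. The stretches below are shown because they hold letters of 1 or both boxes, whose use by CIITA was not tested here. They also stand in front of members that fell and of the member that rose. They are written 5′ to 3′ on the strand of the gene. Capitals mark the letters AGNAAC (where the pair described next was found) and ATTGG, the Y box.
H2-Aa, chr17:34287855-34287919, minus strand: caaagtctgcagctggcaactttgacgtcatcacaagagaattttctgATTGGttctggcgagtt
H2-Eb1, chr17:34305760-34305824, plus strand: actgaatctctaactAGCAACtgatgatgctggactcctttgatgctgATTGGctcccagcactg
H2-DMb1, chr17:34153082-34153146, plus strand: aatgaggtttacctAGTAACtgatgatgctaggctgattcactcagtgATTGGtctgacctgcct
H2-DMb2, chr17:34145111-34145175, plus strand: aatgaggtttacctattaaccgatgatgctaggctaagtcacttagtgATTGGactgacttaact
H2-Oa, chr17:34092288-34092352, plus strand: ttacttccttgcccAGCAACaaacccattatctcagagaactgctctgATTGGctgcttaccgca
H2-Ob, chr17:34238800-34238864, plus strand: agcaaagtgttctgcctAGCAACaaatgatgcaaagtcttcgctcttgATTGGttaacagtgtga

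The Y box letters ATTGG, on either strand, occurred in 7 of the 8 member entries and in 37.4% of all 32851 entries. The X box letters first searched, AGNNACAG, occurred in 2 of 8 entries (25.9% of all), and paired with ATTGG at a gap of 20 to 32 bases in 1 of 8, H2-Eb1, on the opposite strand (0.25% of all). A looser pair, AGNAAC followed by ATTGG on the same strand after 20 to 34 bases, was chosen after the sequences were seen and therefore describes them only. It occurred in 4 of 8 entries, with gaps of 27 bases in H2-Eb1, 28 in H2-DMb1, 28 in H2-Oa and 25 in H2-Ob, and in 0.77% of all entries. AGNAAC can overlap AGNNACAG, and a match is not a bound site. The plot of matches along the promoters shows where each lies.

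**Figure D1:**
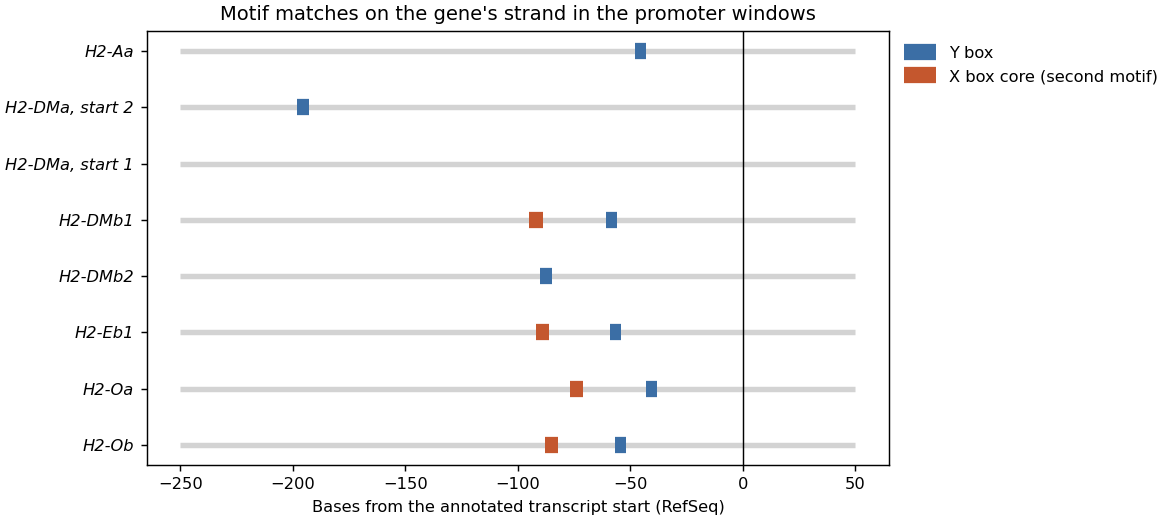
Positions, on the strand of the gene, of the Y box letters ATTGG (blue) and of AGNAAC where paired with it (orange) in the 8 promoter entries; the x axis is the distance in bases from the annotated start and each grey line is an entry. Except at the H2-DMa starts, the Y box lies within 90 bases before the start, 43 bases before it in H2-Oa and 90 in H2-DMb2.

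Depth was 133283969 to 209041812 counts per library and scaling factors were 0.987 to 1.01, and levels are given as CPM, counts scaled to library size by edgeR. The targeted gene Zfp335 fell from 120.1 ± 4.67 CPM (SD, n = 3) to 14.8 ± 0.451 CPM (log2 difference -3.02). Foxp3, the transcription factor that defines Tregs, was high in both groups at 1136 ± 17.4 and 1052 ± 9.24 CPM. It was lower in KO libraries without overlap (log2 difference -0.11, adjusted p = 0.0163 in edgeR's quasi-likelihood test). Of 7 Treg and CD4 T cell markers 2 were lower and 2 higher, where 12.1% and 12.0% of all genes tested were. Xist, an RNA of female cells, was 0.187 to 0.424 CPM in WT and 123.9 to 144.7 CPM in KO libraries, while the Y-linked Eif2s3y was 44.1 to 49.7 CPM in WT and 45.3 to 48.1 CPM in KO libraries. Whatever share of female cells this reflects cannot be told apart from genotype.

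Most class II genes were lower in KO libraries. In edgeR's quasi-likelihood test (Benjamini-Hochberg adjusted p under 0.05), 8 of the 10 members were lower, where 12.1% of all genes tested were, and 1, H2-Oa, was higher, where 12.0% were. H2-DMa was not called. The median log2 difference (KO minus WT) was -0.53 over the members and -0.0042 over all genes tested. The groups did not overlap in the same 8 genes, with all KO values lower (19.1% of all genes), nor in H2-Oa, with all KO values higher (19.3%). At the cutoffs the methods give for other bulk libraries of the study (p under 0.05, adjusted p under 0.1 and a change of 1.5-fold or more), 4 members were lower, namely the 3 chain genes and Ciita, where 4.37% of genes were. The H2 genes lie together on chromosome 17 of GRCm38, from H2-Oa (34092340 to 34095234) to H2-Eb1 (34305867 to 34316674), and Ciita lies on chromosome 16 (10480059 to 10528418). In bulk RNA, fewer cells of a type and less RNA per cell cannot be told apart.

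**Figure D2:**
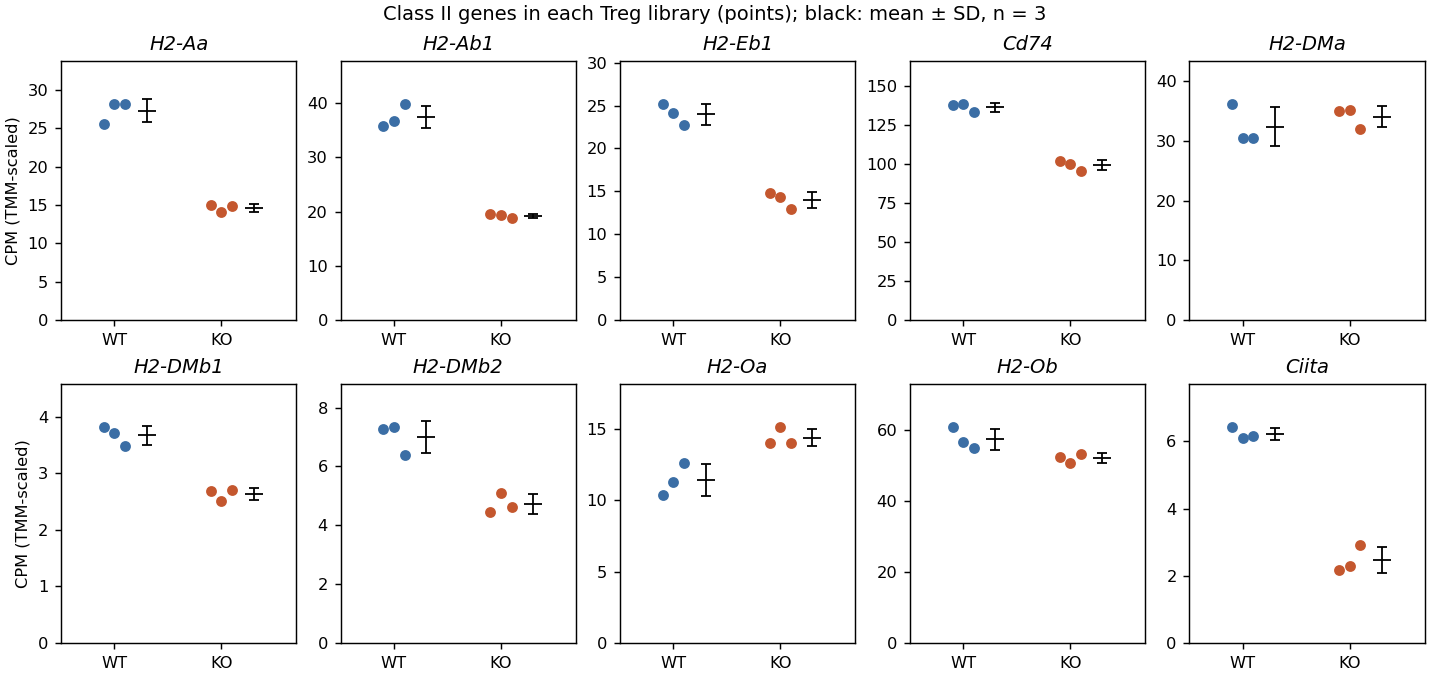
Level of each member in CPM on a linear axis from 0, with a scale of its own for each gene; points are libraries (3 WT in blue, 3 KO in orange) and black marks are the mean ± SD. The KO points lie below the WT points in 8 genes, above them in H2-Oa, and among them in H2-DMa.

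The classical chain genes fell close to a common size. H2-Aa, the α chain, measured 25.6, 28.1 and 28.1 CPM in WT libraries 1 to 3 and 15.0, 14.1 and 14.8 CPM in KO libraries 1 to 3. Its groups did not overlap, and it fell by 46.4% (log2 difference -0.90, SE 0.0569, adjusted p = 1.2e-07 in edgeR's quasi-likelihood test). H2-Ab1, its β partner, measured 35.8, 36.7 and 39.8 CPM in WT and 19.6, 19.4 and 18.8 CPM in KO libraries, again without overlap. It fell by 48.5% (log2 difference -0.96, SE 0.0518, edgeR adjusted p = 3.0e-08). H2-Eb1, the β chain of the E molecule, measured 25.2, 24.1 and 22.7 CPM in WT and 14.8, 14.3 and 13.0 CPM in KO libraries. Here too the groups lay apart, and it fell by 41.7% (log2 difference -0.78, SE 0.0623, edgeR adjusted p = 1.2e-06).

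Cd74, the invariant chain, was the highest of the members and fell less. It measured 137.8, 138.6 and 133.5 CPM in WT and 102, 100.1 and 95.7 CPM in KO libraries. The groups did not overlap, and Cd74 fell by 27.3% (log2 difference -0.46, SE 0.0364, edgeR adjusted p = 1.1e-06).

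The H2-DM subunits did not move together. H2-DMa, the α subunit, measured 36.2, 30.5 and 30.5 CPM in WT and 35.0, 35.2 and 32.03 CPM in KO libraries. The groups overlapped, and the log2 difference of 0.071 (SE 0.0662, 95% interval -0.072 to 0.21) did not pass the test (edgeR adjusted p = 0.497). It turned on WT replicate 1, without which the difference was 0.16 and was called (edgeR adjusted p = 0.0297). The β subunit genes fell: H2-DMb1 measured 3.81, 3.72 and 3.48 CPM in WT and 2.68, 2.51 and 2.70 CPM in KO libraries. H2-DMb2 measured 7.28, 7.33 and 6.39 CPM in WT and 4.45, 5.11 and 4.63 CPM in KO libraries. Neither overlapped between groups, and H2-DMb1 fell by 28.7% (log2 difference -0.49, SE 0.104, edgeR adjusted p = 0.00403) and H2-DMb2 fell by 32.6% (log2 difference -0.57, SE 0.0897, edgeR adjusted p = 0.000456). How reads shared by near-identical copies were assigned was not given; 22.7% of the 50-base exon stretches of H2-DMb1 and 25.9% of those of H2-DMb2 also occur in another gene, most of all in each other, so their split is uncertain, while together they made up 10.7 ± 0.695 CPM in the WT group and 7.36 ± 0.247 CPM in the KO group. Of the H2-DMa stretches 8.43% also occur in other genes. The annotation places CR974462.3 over H2-DMa on the same strand and Brd2, CR974462.4 and Gm20493 on the other; Brd2 shares most stretches with it and rose from 556.5 ± 33.6 to 664.3 ± 4.63 CPM (log2 difference 0.26); its part in the H2-DMa value was not tested, since the strand setting of the counting was not given.

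The H2-O genes behaved unlike the chains. H2-Oa, the α subunit of the H2-DM inhibitor, measured 10.4, 11.3 and 12.6 CPM in WT and 14.1, 15.1 and 14.1 CPM in KO libraries. It rose by 27.0% without overlap (log2 difference 0.35, SE 0.0730, edgeR adjusted p = 0.00382). H2-Ob, the β subunit, measured 60.7, 56.5 and 54.9 CPM in WT and 52.3, 50.6 and 53.3 CPM in KO libraries. The groups did not overlap, and H2-Ob fell by 9.38%, passing the test narrowly (log2 difference -0.14, SE 0.0450, edgeR adjusted p = 0.0354). The call was lost in 5 of the 6 fits that left out a library, each except that without WT replicate 3, with edgeR adjusted p up to 0.164. Of the H2-Oa stretches 15.5% occur in other genes, most of all in the overlapping antisense gene BC051537, which was at 0.481 CPM in WT and 0.541 CPM in KO libraries. The AGNAAC and ATTGG pair was found in H2-Oa, which rose, and in H2-Eb1, H2-DMb1 and H2-Ob, which fell. H2-Aa and H2-DMb2 fell without it. As the pair was chosen after the sequences were seen, a link to direction was not tested.

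Ciita, the transactivator, fell most among the members. It measured 6.42, 6.09 and 6.16 CPM in WT and 2.18, 2.30 and 2.91 CPM in KO libraries. The groups lay far apart relative to their spread, and Ciita fell by 60.4% (log2 difference -1.34, SE 0.110, edgeR adjusted p = 1.5e-06). It overlaps Dexi on the other strand, 1.46% of its stretches occur in other genes, and Dexi had 24.8 CPM in WT and 27.6 CPM in KO.

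Levels can be compared only roughly between members per kilobase of exon. The divisor is the union of all annotated exons of a gene, and which transcripts were expressed was not tested. In WT libraries Cd74 led at 81.4 ± 1.64 CPM per kb, followed by H2-Ab1 at 14.6 ± 0.819, H2-Eb1 at 12.3 ± 0.632, H2-Ob at 10.7 ± 0.559, H2-DMa at 9.39 ± 0.948, H2-Oa at 8.13 ± 0.794, H2-Aa at 7.19 ± 0.390, H2-DMb2 at 4.01 ± 0.302, H2-DMb1 at 2.18 ± 0.104 and Ciita at 0.653 ± 0.0180. From H2-Ob to H2-Aa, each neighbour differed from the next by less than the sum of their SDs. In KO libraries Cd74 still led at 59.2 ± 2.002 CPM per kb, but H2-Oa (10.2 ± 0.442), H2-DMa (9.88 ± 0.516) and H2-Ob (9.68 ± 0.256) now lay above H2-Ab1 (7.50 ± 0.150) and H2-Eb1 (7.21 ± 0.483), within each trio or pair by less than the sum of the SDs, and H2-Aa followed at 3.85 ± 0.131. For scale, Foxp3 was at 248.2 ± 3.799 CPM per kb in WT libraries and Cd79a, part of the B cell receptor, at 8.78 ± 0.503.

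Several proportions between members differed between groups, but not all of them. H2-Ab1 over H2-Aa, the A molecule's chains, was 1.37 ± 0.0598 in WT and 1.32 ± 0.0545 in KO libraries, with overlapping groups (exact two-sided permutation test, p = 0.3). The sum of the chains over Cd74 was 0.650 ± 0.0266 in WT and 0.482 ± 0.00501 in KO libraries, and H2-DMa over the summed H2-DMb genes was 3.04 ± 0.257 and 4.63 ± 0.270. H2-Oa over H2-Ob went from 0.200 ± 0.0293 to 0.277 ± 0.0192, and H2-Ob over the chains from 0.648 ± 0.0492 to 1.09 ± 0.0480. None of these last 4 ratios overlapped between groups, and each exact two-sided permutation test gave p = 0.1, the smallest that 3 against 3 libraries allow. For H2-Oa over H2-Ob this outcome was fixed by the single genes, since H2-Oa was higher and H2-Ob lower in every KO library. Of the summed member CPM, Cd74 made up 39.8% ± 0.541 in WT and 38.6% ± 0.523 in KO libraries.

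Other genes of the pathway moved in both directions. Of the 33 symbols listed, 29 were in the table and tested, and 8 were lower and 5 higher (median log2 difference -0.011). Over all genes tested, beside these counts and those of the sublists below, 12.1% were lower and 12.0% higher. H2-Eb2, a further β chain gene, was lower at 1.26, 1.18 and 1.07 CPM in WT against 0.516, 0.458 and 0.265 CPM in KO libraries. The promoter factors with which CIITA works showed no call: 0 of 7 (0 also at unadjusted p under 0.05; edgeR), with Rfx5 at 49.6 ± 1.02 and 51.2 ± 0.944 CPM. Of 10 genes upstream of Ciita, 3 were lower and 3 higher. Among them, Spi1, the B and myeloid factor PU.1, fell from 2.22 to 1.19 CPM (log2 difference -0.92), and Irf8, an interferon regulatory factor, fell from 53.0 to 46.0 CPM (-0.20). The interferon gamma receptor gene Ifngr2 (0.41), its kinase Jak2 (0.18) and Irf4 (0.24) rose. In antigen processing, 3 of 8 were lower, the peptidase Ctsh (-0.59), the endopeptidase Lgmn (-0.26) and the thiol reductase Ifi30 (-0.25), and Ctsb was higher (0.14). Ctss, the cathepsin that trims the invariant chain, was at 201.1 ± 5.34 and 203.1 ± 1.42 CPM and was not called. At the surface, March1, the ligase that removes class II, fell from 1.44 to 0.573 CPM (-1.32), and Cd83, which opposes it, rose from 54.9 to 80.7 CPM (0.56).

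Markers of B cells, which carry class II, were mostly lower as well. Of 12 B cell markers 11 were lower and 0 higher (edgeR, 0 higher also at unadjusted p under 0.05), with a median log2 difference of -1.64. Over all genes tested, beside this and the marker counts below, 12.1% were lower and 12.0% higher. Ms4a1, encoding CD20, fell from 3.56 ± 0.262 to 1.09 ± 0.130 CPM and Cd79a from 12.8 ± 0.733 to 4.87 ± 0.407 CPM. The exception was Cd72, the highest of the 12 in both groups, at 32.6 ± 0.767 and 32.3 ± 0.498 CPM. It therefore weighs heavily in their sum. Cd72 overlaps Tesk1 on the other strand, and the part of Tesk1 in its value was not tested. The summed B cell markers were 106.0 to 113.1 CPM in WT and 65.2 to 66.6 CPM in KO libraries, and without Cd72, a choice made after its value was seen, 73.9 to 80.8 and 32.9 to 34.4 CPM. Of 8 dendritic cell markers 5 were lower and 0 higher (edgeR; 0 higher at unadjusted p under 0.05), summing to 9.29 to 10.5 CPM in WT and 5.55 to 6.37 CPM in KO libraries. Of 8 macrophage and monocyte markers 1, Lyz2, was lower and 3, the complement genes C1qa, C1qb and C1qc, were higher. The median log2 difference of these markers was 0.27, against -0.88 for the dendritic cell markers. The 8 macrophage and monocyte markers summed to 48.0 to 50.5 CPM in WT and to 39.3 to 43.5 CPM in KO libraries. Without Lyz2, a choice made after its value was seen, the direction was the opposite. These sums were 28.2 to 30.1 CPM in WT and 32.8 to 35.3 CPM in KO libraries. No marker of the 3 lists was at 0 in any library, and their part in the members' differences was not tested.

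**Figure D3:**
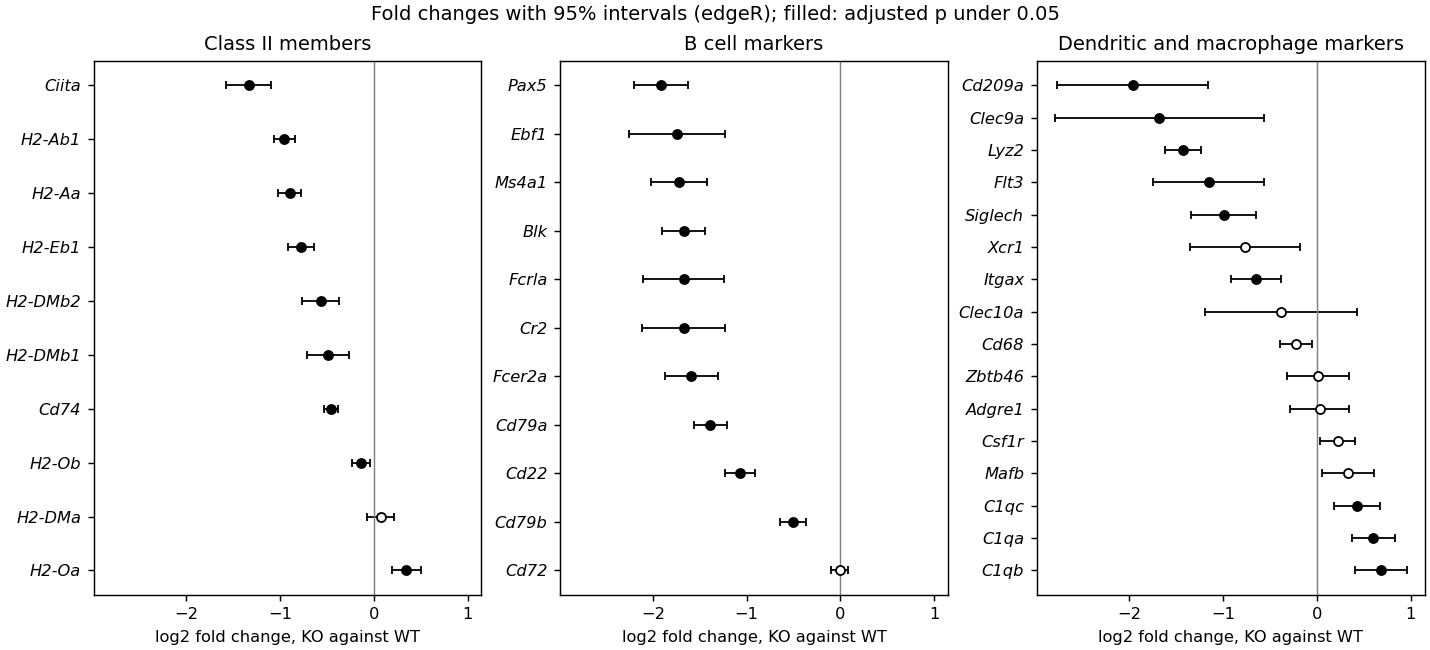
Log2 fold change (KO against WT, x axis) of the 10 members, 11 of the 12 B cell markers (the other is not shown) and the 16 dendritic cell and macrophage markers; points are genes, bars are 95% intervals, and filled points have an adjusted p under 0.05 in edgeR's quasi-likelihood test. Members run from Ciita at -1.34 to H2-Oa at 0.35, B cell markers from Pax5 to Cd72 at -0.0097, and C1qa, C1qb and C1qc lie right of 0.

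**Figure D4:**
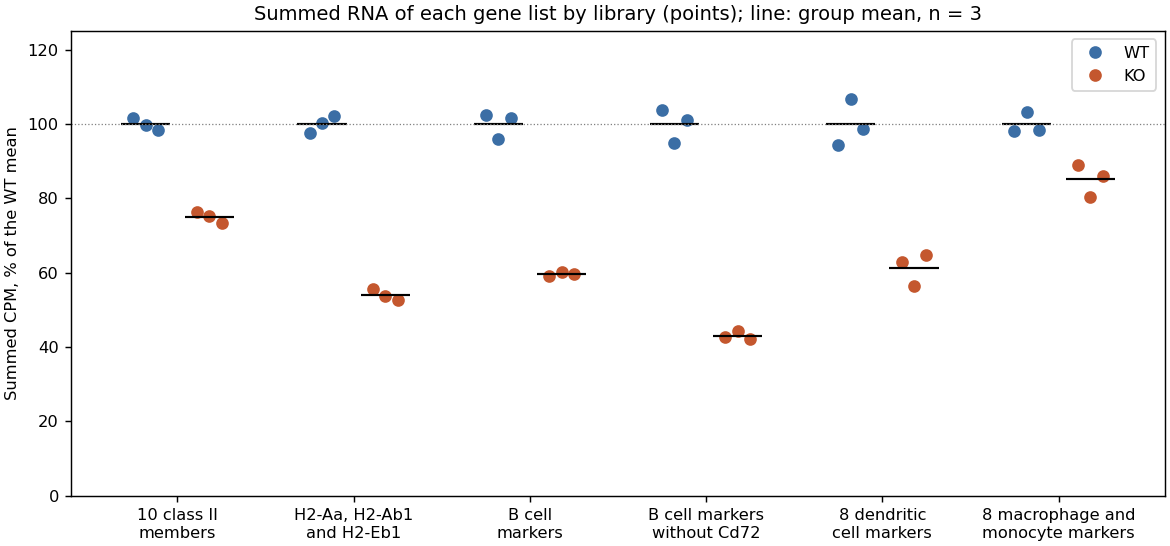
Summed CPM of the members, the chain genes and the marker lists in each library, as a percentage of the WT mean; points are libraries (WT blue, KO orange) and lines are group means. KO libraries averaged 75.0% of the WT mean for the 10 members, 54.0% for the chains, 59.6% for the B cell markers and 43.1% for these without Cd72.

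The summed members were 349.2, 342.9 and 338.2 CPM in WT and 262.4, 258.7 and 252.0 CPM in KO libraries. All KO sums lay below all WT sums (log2 difference -0.41; exact two-sided permutation test, p = 0.1). The plot of summed levels shows this beside the B cell markers, and the ratio of members to B cell markers was 3.11 ± 0.112 in WT and 3.91 ± 0.0993 in KO libraries (log2 difference 0.33; exact permutation p = 0.1). Without Cd72 the ratio was 4.42 ± 0.191 and 7.69 ± 0.193. For the chains alone the direction turned on Cd72, with ratios of 0.805 ± 0.0372 and 0.728 ± 0.0253 with it and 1.14 ± 0.0672 and 1.43 ± 0.0497 without it (exact permutation p = 0.1 for each). Ciita over B cell markers was 0.0564 ± 0.00132 in WT and 0.0374 ± 0.00591 in KO libraries (exact permutation p = 0.1), and without Cd72 it was 0.0801 ± 0.00214 and 0.0736 ± 0.0128, with overlapping groups (exact permutation p = 0.4). The ratios of H2-Ob, H2-Oa and H2-DMa to the B cell markers were higher in every KO library than in any WT library, with and without Cd72, with log2 differences of 0.61, 1.08 and 0.82 with it (exact permutation p = 0.1 for each). For H2-Oa this outcome was fixed, since H2-Oa was higher and the B cell marker sums lower in every KO library.

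The genes whose levels followed the summed members most closely over the 6 libraries were found by the distance between their centred log2 CPM, among 12027 genes of at least 1 CPM on average. The 10 nearest included Cs, Srebf2, Slc35c1, Trap1, Il9r, Anln, Il10ra and Lsm10, at distances of 0.0446 to 0.0822. Of the B cell markers, Cd79b came nearest at rank 126 and Pax5 farthest at rank 11944. The sum is weighted to Cd74, and the likeness is a description over 6 libraries of 2 groups.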

How the data were processed

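The deposited table holds raw read counts per gene symbol for 6 libraries. The authors prepared libraries with a TruSeq RNA kit; the submitters' processing notes name HISAT2, DESeq2 and mm10, and the counting tool, annotation and strand setting for these libraries were not given in the sources used here (StringTie is named for TPM values of the study's Foxp3Cre libraries, not used here). Of 32285 rows, 40 repeated a symbol, and the row with most counts was kept under the name. Counts were fitted in edgeR 4.0.16 (R 4.3.3; TMM scaling, filterByExpr, quasi-likelihood F-test, Benjamini-Hochberg over 17307 genes), and calls were made at an adjusted p under 0.05. SE and 95% intervals come from the same fit. Sums and ratios were compared by exact two-sided permutation tests over libraries, whose smallest p is 0.1. Levels per kb used the exon union of GENCODE M21 (GRCm38). All 10 members were named; of the pathway list, those past the threshold and a few that were not; of alike genes, the nearest 10. The members and lists were chosen with earlier results of these data known. Alternatives were limma 3.58.1, DESeq2 1.42.0, other scalings and filters, a replicate block and leaving out each library. Median squared differences between replicate pairs were 7.61 to 20.7 times those of counting error alone, so none was the same library sequenced again. Separate preparations from the same animals cannot be recognised in this way. A few listed genes are not reported here by name, but stay in the counts and sums. The gene-wise fits were tested on simulated counts, where recovery of changed genes was required only above a low level of expression.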

Additional observations from a re-analysis of the deposited data

How the results depend on the processing

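Of 333 values recomputed under alternatives, 316 were scored as kept, 17 were not, and 0 reversed. For log2 differences, kept meant the same direction and side of the threshold, or a value within the spread. Counts of genes were scored only by nearness in size to the main count, so they could not reverse. Dendritic cell and macrophage markers lower, 6 in the main fit, were scored as kept at 8 with library size only. They were also kept at 4 with a filter of at least 1 CPM in 3 libraries. All genes lower, 2088 in the main fit, were kept at 1399 without WT replicate 2. At the study's cutoffs for other libraries 4 members were lower, and over all genes 757 were lower and 446 higher. Leaving out a library in turn gave 7 to 8 members lower and 1 to 2 higher, and 1399 to 2501 genes lower and 1341 to 2495 higher; without WT replicate 2 and without KO replicate 2 the last count was 1341 and 1386. The log2 difference of the summed members was -0.45 with library size only, -0.52 as a mean over genes of log2 CPM and -0.39 without Cd74 (added after seeing the data), and -0.43 to -0.40 leaving out a library. That of the ratio to B cell markers was 0.87 as a mean of log2 CPM and 0.80 without Cd72 (added likewise), and 0.31 to 0.36 leaving out a library. The cause was not tested. The replicate numbers were not taken as pairs: same-numbered libraries correlated at 0.052, -0.0099 and -0.0274 (11078 genes), and not every library correlated best with its own number. With a replicate block 8 members were lower and 1 higher, 2084 genes were lower and 2143 higher, the summed difference was -0.41 and the ratio 0.33. Depth was not limiting for the members, but 3 libraries a group, the undivided bulk RNA, the mixed Xist and Y-linked signal and the unknown strand setting limit what each difference can be ascribed to.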

Other observations

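Plasma cell genes moved in both directions. Jchain, which joins secreted immunoglobulin, fell from 11.4 ± 1.10 to 4.21 ± 0.183 CPM (log2 difference -1.43), Xbp1, a factor of secretory cells that other cells express too, rose from 98.9 ± 4.48 to 117.4 ± 3.19 CPM (0.25), and Sdc1 and Derl3 were not called. When likeness was measured to the 3 chain genes in place of all members, a choice made after seeing the data, the nearest genes were Ccl4 and S100a6, at distances of 0.0909 and 0.105, and the B cell markers ranked from 52 (Cd22) to 10970 (Pax5) and the ranked dendritic cell markers from 74 (Itgax) to 7868 (Zbtb46) of 12027 genes. Other Y-linked genes were lower in KO libraries, with Ddx3y at 102.7 ± 3.88 and 78.7 ± 1.81 CPM and Uty at 17.4 ± 0.248 and 11.9 ± 0.351 CPM, against Eif2s3y at 46.6 ± 2.85 and 46.9 ± 1.46 CPM.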
